A study of Chlorocebus aethiops with 24 samples.

Results

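The genes described here encode growth factors, insulin-like growth factors and neurotrophins, their receptors and their binding proteins, as measured in the left hippocampus of male vervet monkeys. They were chosen by gene symbol alone: every probe set that carries a single symbol beginning with IGF, INSR, FGF, BDNF, NTF, NTRK, EGF, PDGF, VEGF, ERBB, GDNF, GFRA or HGF, or naming an insulin receptor substrate, a neuregulin, MET, PTN or MDK. The rule found 40 probe sets of 37 genes among 11512 probe sets in the table. Of these 11512, 8730 carried 1 symbol, 88 carried several and 2694 carried none here. The insulin-like growth factor (IGF) and insulin family held 9 probe sets of 8 genes, the fibroblast growth factor (FGF) family 10 genes, the epidermal growth factor (EGF), neuregulin and ERBB family 8 genes, and the platelet-derived and vascular endothelial growth factor (PDGF and VEGF) family 6 probe sets of 4 genes. The neurotrophin family held 3 genes, the GDNF receptors 2, and the hepatocyte growth factor receptor MET and pleiotrophin (PTN) made up the last 2. Some well-known members of these families (IGF2, IGF1R, INSR, FGF2, FGFR1, NTRK2, EGFR, ERBB4, VEGFA and GDNF among them) had no probe set with a single symbol and were not analysed here.

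RNA was measured on Affymetrix Rhesus Macaque arrays, so vervet RNA was read by probes designed for another monkey species. Dams were females that drink alcohol by choice. In the last part of pregnancy they were offered either an ethanol solution, which gave the fetal alcohol spectrum disorder (FASD) group, or an isocaloric sucrose solution, which gave the control group, and offspring of each were sacrificed at 5 months or at 2 years of age. The values cover 6 control and 5 FASD animals at 5 months, and 6 control and 5 FASD animals at 2 years; 1 further FASD array of each age was discarded by the authors as an outlier and carries no values. Intake was voluntary, and dams were not assigned to 1 solution for good, so a dam could contribute to both groups in different pregnancies. The brains were perfused before dissection. Each value stands for a whole dissected hippocampus, in which fewer cells of a type cannot be told apart from less RNA per cell.

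Growth factors of these families act mostly outside the cell, where they bind receptor tyrosine kinases that pass the signal on through the phosphatidylinositol 3-kinase and ERK pathways. Binding proteins in the extracellular space hold or present the ligands, and inhibitors such as the Sprouty proteins damp the signal from within. In the hippocampus, brain-derived neurotrophic factor (BDNF) is known for its part in synaptic plasticity, IGF1 and the FGFs for their part in neurogenesis, and neuregulins and PDGF for their part in the development of glia and of blood vessels. Several probe sets were caught by their symbol only: FGF11, FGF12 and FGF14 are intracellular partners of sodium channels, IGF2BP3 is an RNA-binding protein named for its binding to IGF2 mRNA, FGFRL1 is an FGF receptor without a kinase domain, and EGFLAM, EGFL6 and EGFL8 are extracellular proteins with EGF-like repeats.

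All values are log2 intensities, on which a difference of 1 is a 2-fold change, and comparisons are limma fits over all 11512 probe sets with Benjamini-Hochberg adjustment over the same rows. A gene is said to pass unadjusted where its limma p, before that adjustment, was under 0.05. The exact permutation tests exchange animals for single values and were run only for member values that had passed unadjusted. Across the 22 animals the 40 probe sets spanned between 0.371 (FGF16) and 2.69 (one IGFBP7 probe set) from the lowest to the highest animal, with a median span of 0.754, and 11 spanned more than 1. Their within-group SD had a median of 0.187, against 0.158 for all probe sets. Oligodendrocyte markers (5 of 12 listed genes measured) averaged between −0.23 and 0.02 in the 5-month controls and between 0.04 and 0.50 in the 5-month FASD animals, as log2 deviations from the mean of all arrays, and precursor markers (7 of 11 measured) between −0.12 and 0.06 against between 0.14 and 0.29. Neither list overlapped between these groups. At 2 years both overlapped: oligodendrocyte markers averaged between −0.28 and 0.19 in controls and between −0.31 and 0.12 in FASD animals. Precursor markers averaged between −0.44 and 0.09 against between −0.26 and 0.33. All other measured marker lists overlapped between exposures at each age. FASD 5-month animal 2 had the lowest array weight of the 22 (0.273), and control 5-month animal 6 had the highest mean of the 6 measured choroid plexus and ependyma markers. Pyramidal neuron markers (6 of 12 measured) and dentate granule neuron markers (3 of 10 measured) had rows in the table, which holds only probe sets detected in at least 6 arrays. Their means per animal ran from −0.21 to 0.14 for pyramidal and from −0.39 to 1.00 for granule neuron markers. FASD 2-year animal 6 was the highest for granule neuron markers, and how evenly the tissue was dissected was not tested.

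The first comparison asked which of these genes differed between FASD and control animals, averaged over both ages. Of the 40 probe sets 3 had an unadjusted limma p under 0.05, which is 7.5%, against 8.44% of all 11512 probe sets. BDNF and 1 of the 2 probe sets of PDGFB were lower in FASD animals, and EGFLAM was higher. None passed after adjustment, the lowest adjusted p being 0.579, and no probe set of the whole table passed (972 had an unadjusted p under 0.05). The median alcohol difference of the 40 was −0.02, against −0.01 for all probe sets, and 23 of the 40 (57.5%) were lower in FASD, against 53.2% of all. Of the 40, 26 differed by less than 0.1. The family counts of lower and higher probe sets were 7 and 3 for FGF, 4 and 5 for IGF and insulin, 2 and 6 for EGF, neuregulin and ERBB, and 4 and 2 for PDGF and VEGF.

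**Figure D1:**
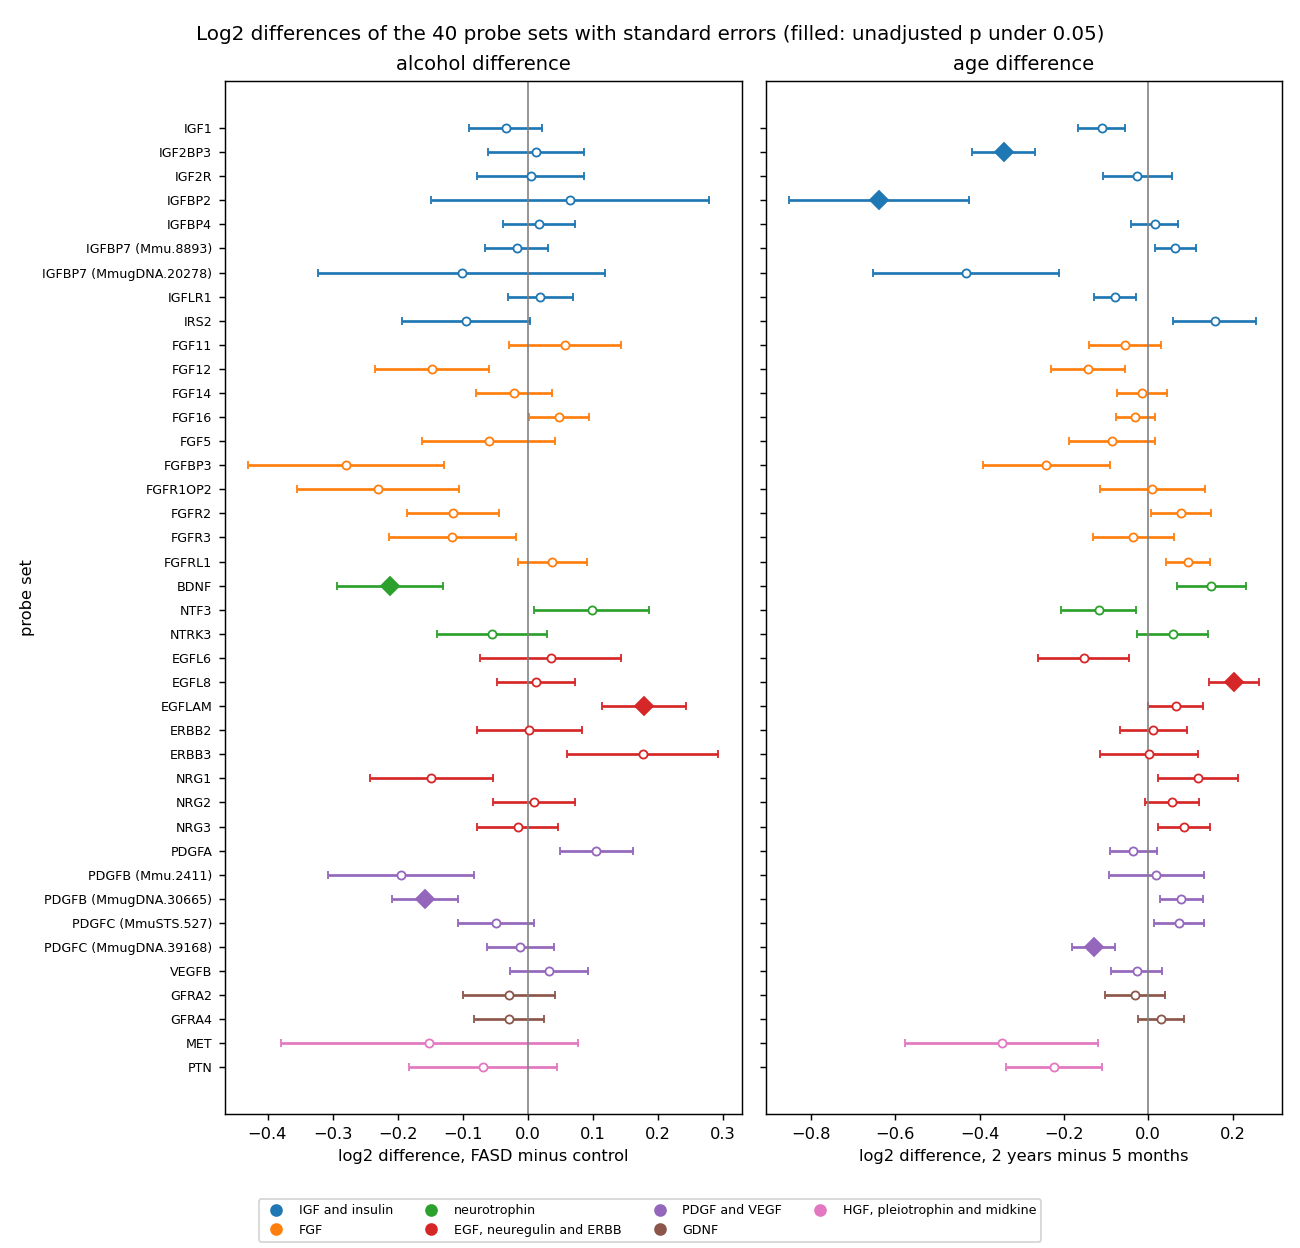
Log2 differences (± SE) of the 40 probe sets for FASD minus control, averaged over ages, and for 2 years minus 5 months, averaged over exposures, coloured by family. Filled diamonds mark an unadjusted limma p under 0.05: 3 probe sets for alcohol (BDNF, PDGFB, EGFLAM) and 4 for age (IGF2BP3, EGFL8, IGFBP2, PDGFC), with the widest SE on MET and the IGF-binding proteins 2 and 7.

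BDNF, the neurotrophin that binds the TrkB receptor, was lower in FASD animals at 5 months. The 5-month controls ranged from 7.68 to 8.22 with a median of 8.02, and the 5 FASD animals of that age read 7.37, 7.27, 8.06, 7.83 and 7.65. At this age 3 FASD animals lay below every control and the other two lay inside the control range, so the groups overlapped. At 2 years the controls ranged from 7.86 to 8.16 (median 7.97) and the FASD animals read 7.78, 7.92, 8.00, 8.09 and 7.94, which is nearly the same range. The difference was −0.37 at 5 months (SE 0.12, limma p = 0.00397, adjusted p = 0.930, exact permutation p = 0.0476) and −0.05 at 2 years (SE 0.12, limma p = 0.659). The difference between these was 0.32 (SE 0.16, unadjusted p above 0.05, adjusted p = 1.00), so the 2 ages were not shown to differ. Averaged over ages it was −0.21 (SE 0.08, limma p = 0.0167, exact permutation p = 0.03). Within FASD animals, BDNF was higher at 2 years than at 5 months by 0.31 (SE 0.12, unadjusted p under 0.05, adjusted p = 0.637, exact permutation p = 0.0952), and within controls the age difference was −0.01. Oligodendrocyte and precursor markers were higher in the same 5-month FASD animals, and their part in the BDNF difference was not tested. Without control animal 6 and FASD animal 3 of 5 months, the 2 arrays with the highest choroid plexus marker means, the averaged difference was −0.14 (unadjusted p above 0.05, adjusted p = 0.605) and the 5-month difference −0.24 (unadjusted p above 0.05, adjusted p = 0.791).

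The other neurotrophin genes did not pass for alcohol or age. NTF3, the ligand of TrkC, differed by 0.10 for alcohol (SE 0.09, adjusted p = 0.758) and by −0.12 for age. NTRK3, which encodes TrkC, differed by −0.05 for alcohol (adjusted p = 0.866) and by 0.06 for age. At 5 months the FASD animals read 8.35, 9.04, 9.10, 9.06 and 8.93 for NTRK3, with only animal 2 below the control range of 8.90 to 9.17.

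PDGFB, the B chain of platelet-derived growth factor, had the lowest alcohol p of the 40. On probe set MmugDNA.30665.1.S1_at the 2-year controls ranged from 7.17 to 7.55 (median 7.49) and the FASD animals read 7.17, 7.20, 7.39, 7.30 and 7.20. Of the 6 controls 5 lay above every FASD animal, and control animal 2 lay among them. At 5 months the controls ranged from 7.12 to 7.42 (median 7.39) and the FASD animals read 7.18, 7.23, 7.23, 7.08 and 7.28, with 4 of 6 controls above every FASD animal. The averaged difference was −0.16 (SE 0.05, limma p = 0.00493, adjusted p = 0.579, exact permutation p = 0.00425). It was −0.18 at 2 years (SE 0.07, limma p = 0.0174, exact permutation p = 0.039) and −0.13 at 5 months (limma p = 0.0787).

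The second PDGFB probe set had the same sign in 6 of the 7 comparisons made, with a wider spread. Its 2-year controls ranged from 6.22 to 7.39 (median 7.29), against 6.68, 6.71, 6.85, 6.87 and 6.88 in FASD. Control animal 2 was again the exception, being the lowest of all animals while the other 5 controls lay above every FASD animal. The averaged difference was −0.20 (SE 0.11, adjusted p = 0.635). Without control 2-year animal 2 it was −0.28 (unadjusted p under 0.05, adjusted p = 0.188), and the difference between ages was −0.38 (unadjusted p under 0.05, adjusted p = 0.758). Each of these passed unadjusted in only 1 of the 22 omissions of a single animal, over which the averaged difference ranged from −0.28 to −0.15. The 2 probe sets of 1 gene are readings of the same animals and not separate evidence.

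PDGFA, the A chain, differed by 0.11 for alcohol in the other direction (SE 0.06, adjusted p = 0.620). VEGFB, a ligand of VEGF receptor 1, differed by 0.03 for alcohol and −0.03 for age.

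EGFLAM encodes pikachurin, a matrix protein that binds dystroglycan at synapses of the retina, and it was higher in FASD. At 2 years the FASD animals read 7.32, 7.15, 6.92, 7.50 and 7.40, against 6.87 to 7.22 in controls (median 6.99). Here 3 FASD animals lay above every control and animal 3 lay near the bottom of the control range. At 5 months the FASD animals read 7.35, 7.07, 6.93, 7.23 and 7.08, against 6.91 to 7.16 (median 7.01), and the groups overlapped more. The difference was 0.24 at 2 years (SE 0.09, limma p = 0.0151, exact permutation p = 0.0541), 0.12 at 5 months (limma p = 0.222) and 0.18 averaged over ages (SE 0.07, limma p = 0.0116, adjusted p = 0.579, exact permutation p = 0.0137). Without FASD 2-year animal 4, the 2-year difference was 0.18 (unadjusted p above 0.05, adjusted p = 0.834).

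**Figure D2:**
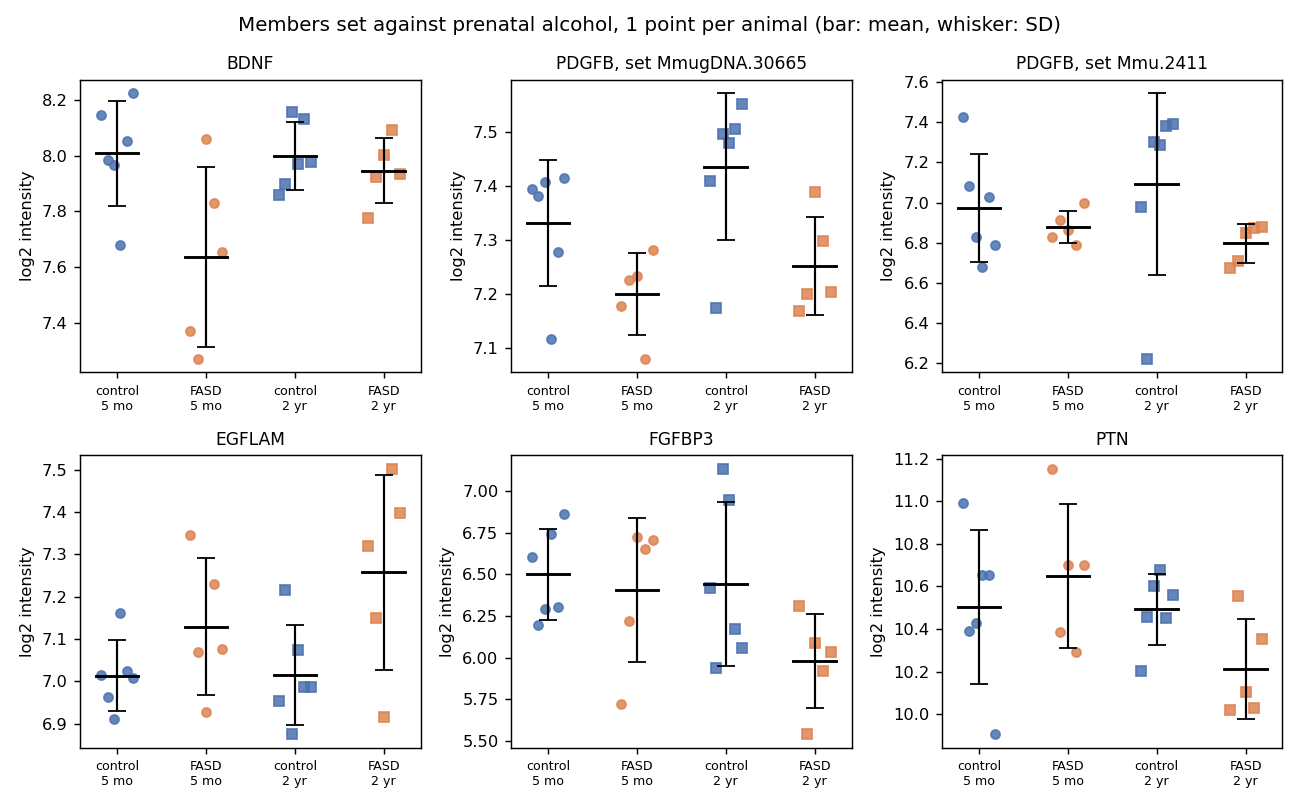
Log2 intensity of BDNF, both PDGFB probe sets, EGFLAM, FGFBP3 and PTN, with 1 point per animal, bars at the group mean and whiskers of 1 SD, for control (blue) and FASD (orange) animals at 5 months (circles) and 2 years (squares). BDNF in 5-month FASD animals reaches down to 7.27, and 1 control of 2 years lies apart at 6.22 on the second PDGFB probe set.

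Among the FGF genes, none passed for alcohol averaged over ages. FGFBP3, a secreted protein that binds FGFs and releases them from the matrix, was lower in FASD at 2 years: controls ranged from 5.94 to 7.14 (median 6.30) and FASD animals read 6.31, 5.54, 6.09, 5.92 and 6.03. Control animals 3 and 4 stood well above the rest, and 3 of the other four lay inside the FASD range. The 2-year difference was −0.46 (SE 0.21, limma p = 0.0398, exact permutation p = 0.113), and without control 2-year animal 3 it was −0.33 (limma p = 0.122). It left the threshold in 6 of the 22 omissions of a single animal. The receptors FGFR2 and FGFR3 differed by −0.11 (SE 0.07, adjusted p = 0.662) and −0.12 (SE 0.10, adjusted p = 0.743) for alcohol. The sodium channel partner FGF12 differed by −0.15 (adjusted p = 0.645), and FGFR1OP2, named for its fusion with FGFR1, by −0.23 (SE 0.12, adjusted p = 0.620).

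The ERBB receptors and neuregulins did not pass for alcohol. ERBB3, a neuregulin receptor found on oligodendrocytes and other glia, differed by 0.18 (SE 0.12, adjusted p = 0.673), with 5-month FASD animal 2 the highest of all at 8.50. That animal also had the highest oligodendrocyte marker mean (0.50), and the part of the markers in the ERBB3 value was not tested. NRG1, a neuregulin ligand, differed by −0.15 (adjusted p = 0.663), and ERBB2 by 0.00.

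IGF1, the main ligand of the IGF receptor, differed by −0.03 for alcohol (SE 0.06, adjusted p = 0.880), and IRS2, an adaptor of the insulin and IGF receptors, by −0.09 (SE 0.10, adjusted p = 0.787). At 5 months 8 of the 9 IGF and insulin probe sets were lower in FASD, with values from −0.15 to 0.08, and none passed. At that age 28 of the 40 (70%) were lower in FASD, against 61% of all probe sets. The GDNF co-receptors GFRA2 and GFRA4 each differed by −0.03. MET differed by −0.15 with an SE of 0.23, in animals that ranged from 5.18 to 7.75.

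Within each age, 1 of 40 passed unadjusted at 5 months (BDNF), against 4.83% of all probe sets, and 3 of 40 at 2 years (EGFLAM, PDGFB and FGFBP3), against 6.05%. In none of the 40 did FASD and control animals of 1 age fail to overlap, against 0.443% of all probe sets at 5 months and 0.313% at 2 years. The sign of the difference was the same at both ages in 21 of 40 (52.5%), against 57.5% of all. For the test of whether the alcohol difference itself changed with age, 0 of 40 had an unadjusted limma p under 0.05 and 0 after adjustment, against 3% of all probe sets unadjusted. A two-way analysis of variance without moderation also gave 0. BDNF came nearest. Next was PTN, at −0.43 (SE 0.23, adjusted p = 1.00).

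The second comparison asked which genes differed between 2 years and 5 months. Of the 40 probe sets 4 (10%) had an unadjusted limma p under 0.05, against 9.57% of all probe sets: IGF2BP3, IGFBP2 and 1 probe set of PDGFC were lower at 2 years and EGFL8 was higher. None of the 40 passed after adjustment, while 16 probe sets of the table did (0.139%). The median age difference of the 40 was −0.02, against 0.00 for all probe sets.

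IGF2BP3, an RNA-binding protein best known from fetal tissue and tumours, was lower at 2 years. The 5-month controls ranged from 5.71 to 6.08 (median 5.91) and the 2-year controls from 5.28 to 5.59 (median 5.50). These groups did not overlap, which in controls held for 1 of the 40 and for 0.434% of all probe sets. FASD animals read 6.08, 5.81, 5.60, 5.71 and 5.85 at 5 months and 5.60, 5.39, 5.33, 5.97 and 5.60 at 2 years. Here the groups overlapped, with animal 4 of the older group at 5.97. The age difference was −0.34 (SE 0.07, limma p = 0.000123, adjusted p = 0.0614, exact permutation p = 0.00067). In controls it was −0.45 (SE 0.10, limma p = 0.000163, adjusted p = 0.156) and in FASD −0.23 (SE 0.11, limma p = 0.0429, exact permutation p = 0.151), a difference of 0.22 that did not pass (limma p = 0.158). With any 1 animal left out the averaged value stayed between −0.39 and −0.31, and its adjusted p between 0.00476 and 0.139.

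EGFL8, a secreted protein with EGF-like repeats, was higher at 2 years in both exposures. Controls ranged from 6.46 to 6.77 at 5 months (median 6.58) and from 6.69 to 6.97 at 2 years (median 6.80). FASD animals read 6.52, 6.72, 6.87, 6.42 and 6.66 at 5 months and 6.76, 6.83, 6.89, 6.64 and 7.02 at 2 years. The groups overlapped in both exposures. The age difference was 0.20 (SE 0.06, limma p = 0.00257, adjusted p = 0.222, exact permutation p = 0.00307), with 0.22 in controls (limma p = 0.0137) and 0.19 in FASD (limma p = 0.0425, exact permutation p = 0.103).

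IGFBP2, a binding protein that is secreted by glia and by the choroid plexus, was lower at 2 years. The 5-month controls ranged from 7.39 to 9.10 (median 8.38) and the 2-year controls from 7.09 to 7.77 (median 7.55). FASD animals read 8.77, 9.05, 7.66, 7.96 and 7.53 at 5 months and 7.79, 7.58, 6.98, 7.67 and 8.45 at 2 years. The 5-month animals were spread widely, with SDs of 0.648 in controls and 0.680 in FASD, and their lower members lay among the 2-year animals. The age difference was −0.64 (SE 0.21, limma p = 0.00666, adjusted p = 0.286, exact permutation p = 0.0146), with −0.78 in controls (SE 0.29, limma p = 0.0131) and −0.50 in FASD (limma p = 0.126). The mean of the choroid plexus and ependyma markers was also lower at 2 years, with a difference of −0.25. Without the 2 arrays of highest marker mean, the IGFBP2 difference was −0.45 (unadjusted p under 0.05, adjusted p = 0.527).

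IGFBP7 was highest in the animals with the highest marker means on 1 of its 2 probe sets. On MmugDNA.20278.1.S1_at control 5-month animal 6 read 11.81, then FASD 5-month animals 3, 5 and 4 read 10.95, 10.34 and 10.13, and no other animal exceeded 10.07. The same 4 animals, in the same order, had the highest choroid plexus and ependyma marker means (1.22, 0.54, 0.37 and 0.27). Below them the orders differed, and the animals at marker ranks 10, 11 and 19 of 22 had IGFBP7 ranks 17, 21 and 8. In control animal 6 of 5 months SLC13A4 read 10.19 against 6.34 to 9.21 in the other animals, KCNJ13 8.50 against 6.07 to 7.53, FOLR1 9.56 against 6.96 to 8.98 and TEKT1 8.17 against 6.72 to 7.69, while AQP1 and RSPH1 lay inside the range of the others. IGFBP2 put these 4 animals at ranks 1, 2, 8 and 14 of 22. The age difference of this IGFBP7 probe set was −0.43 (SE 0.22, unadjusted p above 0.05, adjusted p = 0.559) and was −0.15 (unadjusted p above 0.05, adjusted p = 0.780) without the 2 arrays of highest marker mean. The second IGFBP7 probe set stayed between 7.65 and 8.09 in all animals, with an age difference of 0.06 (adjusted p = 0.720), and had the same sign as the first in 1 of 7 comparisons.

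**Figure D3:**
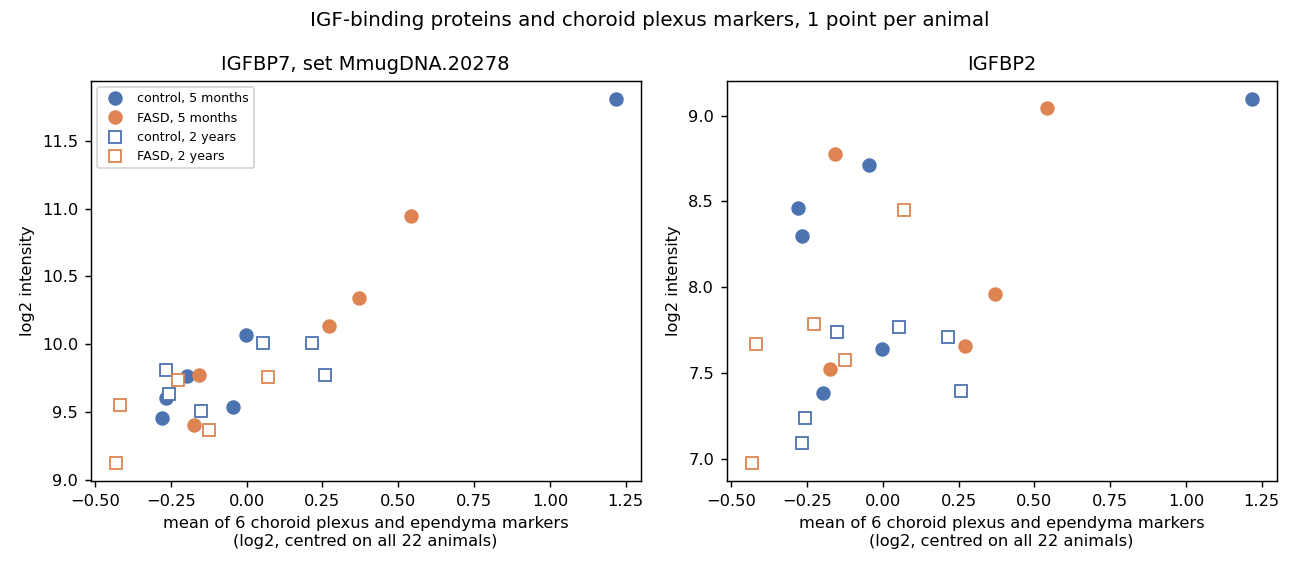
Log2 intensity of IGFBP7 (probe set MmugDNA.20278.1.S1_at) and IGFBP2 in each animal against the mean of 6 choroid plexus and ependyma markers, given as a log2 deviation from the mean of all arrays. The animal at the far right, control 5-month animal 6 (1.22), has the highest value of both genes.

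PDGFC, a further PDGF ligand, had age differences of opposite sign on its 2 probe sets. MmugDNA.39168.1.S1_at read 7.18 to 7.59 in 5-month controls (median 7.36) and 7.18 to 7.41 in 2-year controls (median 7.24), with 7.42, 7.35, 7.34, 7.33 and 7.41 in 5-month FASD animals and 7.30, 7.35, 7.16, 7.29 and 7.09 in 2-year FASD animals. The ages overlapped in both exposures, and the age difference was −0.13 (SE 0.05, limma p = 0.0198, adjusted p = 0.398, exact permutation p = 0.00996). On MmuSTS.527.1.S1_at it was 0.07 (SE 0.06, adjusted p = 0.739).

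**Figure D4:**
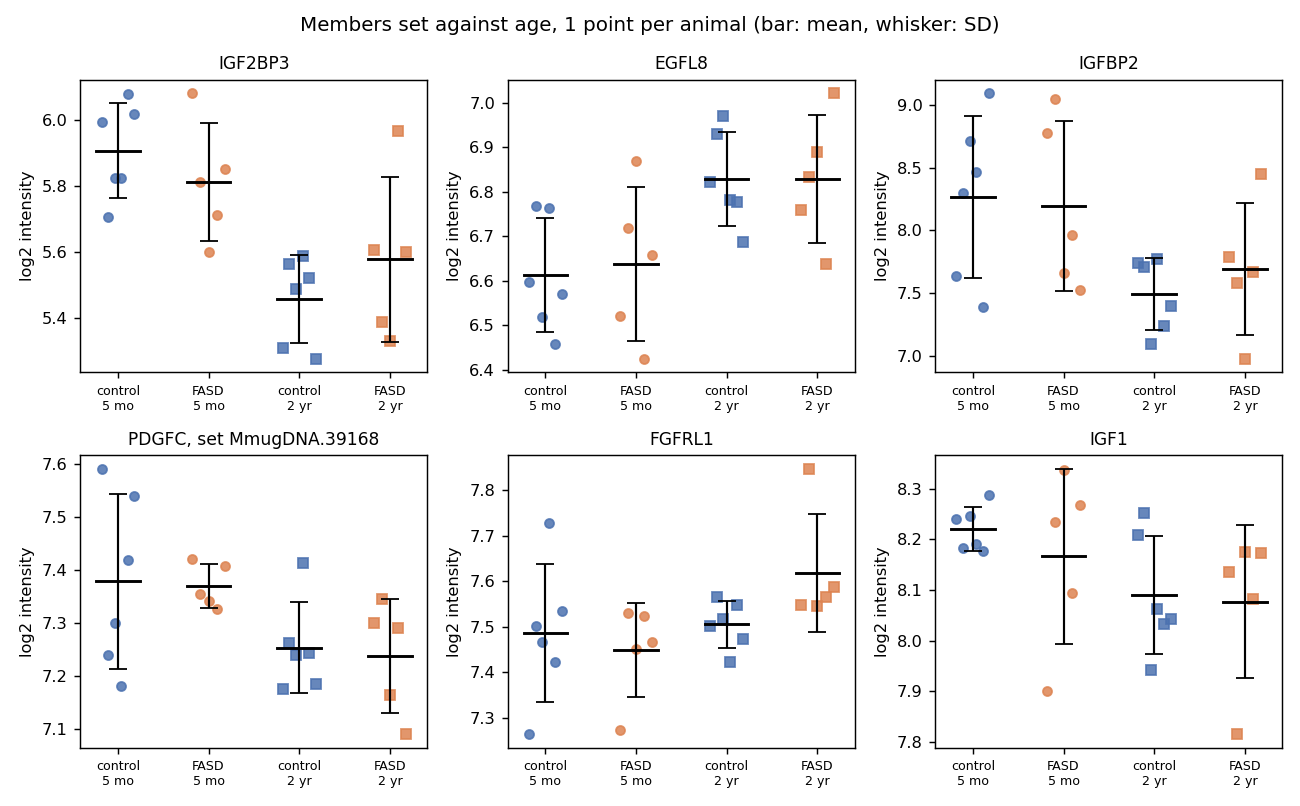
Log2 intensity of IGF2BP3, EGFL8, IGFBP2, PDGFC (MmugDNA.39168.1.S1_at), FGFRL1 and IGF1, with 1 point per animal, bars at the group mean and whiskers of 1 SD, for control (blue) and FASD (orange) animals at 5 months (circles) and 2 years (squares). The IGF2BP3 values of 5-month controls (5.71 and above) lie clear of those of 2-year controls (5.59 and below).

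Within FASD animals 5 of 40 differed with age at an unadjusted limma p under 0.05, against 6.99% of all probe sets, and within controls 4 of 40, against 5.55%. BDNF, EGFL8 and IGF2BP3 are among the 5 and are given above, and their values in FASD left the threshold in 2, 6 and 7 of the 22 omissions of a single animal. PTN, a heparin-binding growth factor, read 11.15, 10.39, 10.70, 10.29 and 10.70 in 5-month FASD animals and 10.02, 10.55, 10.10, 10.03 and 10.35 in 2-year FASD animals. The 3 lowest older animals lay below every younger one, and the other two lay inside the younger range. The difference was −0.44 (SE 0.17, limma p = 0.0162, exact permutation p = 0.0397), against −0.01 in controls, and −0.31 without FASD 5-month animal 2 (limma p = 0.0693).

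FGFRL1 read 7.27, 7.53, 7.45, 7.52 and 7.47 in 5-month FASD animals and 7.55, 7.85, 7.55, 7.56 and 7.59 in 2-year FASD animals, which did not overlap; this held for 1 of the 40 and 1.31% of all probe sets. The difference was 0.17 (SE 0.08, limma p = 0.0392, exact permutation p = 0.00794), and 0.11 without FASD 2-year animal 2 (limma p = 0.149). In controls it was 0.02. In controls, IGFLR1, a receptor-like protein of the TNF receptor family, was lower at 2 years (difference −0.15, SE 0.07, limma p = 0.0328, exact permutation p = 0.0498), a call that was lost in 6 of the 22 omissions of a single animal. Across the 40, the age difference had the same sign in controls and FASD in 28 (70%), against 57.1% of all probe sets.

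The remaining ligands and receptors did not pass for age. IGF1 read 8.18 to 8.29 in 5-month controls and 7.94 to 8.25 in 2-year controls, with an averaged difference of −0.11 (SE 0.06, adjusted p = 0.559). IRS2 differed by 0.16 (adjusted p = 0.652), NRG1 by 0.12 (adjusted p = 0.738), NRG3 by 0.08 (adjusted p = 0.715), FGFR2 by 0.08 (adjusted p = 0.792) and MET by −0.35 (SE 0.23, adjusted p = 0.676). ERBB2, ERBB3, GFRA2, GFRA4, VEGFB and PDGFA each differed by less than 0.05 in size.

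Genes that act on the same routes were counted from 4 lists, of which 90 of 161 genes were measured, on 94 probe sets. For alcohol 8 of 94 had an unadjusted limma p under 0.05 (6 lower and 2 higher in FASD), and for age 12 of 94 (9 lower and 3 higher at 2 years), with 0 of 94 after adjustment in each, set against 8.44% and 9.57% of all probe sets unadjusted. With 1 animal left out the unadjusted counts ranged from 5 to 14 for alcohol and from 9 to 19 for age, the 14 and the 19 both without control 2-year animal 2. The 5 for alcohol came without FASD 2-year animal 1 or 6, FASD 5-month animal 4, control 2-year animal 1 or control 5-month animal 2. Shares of all probe sets were not counted for these omissions. Of the other ligands, receptors and co-receptors 3 of 18 probe sets passed unadjusted for alcohol, of the adaptors and phosphatidylinositol 3-kinase to mTOR genes 2 of 35, of the RAS, ERK and phospholipase C genes 1 of 20, and of the feedback inhibitors and response genes 2 of 21. For age the counts were 2, 2, 3 and 5 in the same order.

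NGFR, which encodes the p75 receptor that all neurotrophins bind, had the largest alcohol difference of the named pathway genes. At 2 years the controls read between 5.77 and 8.18 (median 7.66) and the FASD animals 6.11, 5.82, 5.96, 6.49 and 6.38. Of the 6 controls 5 lay above every FASD animal and control animal 2 lay below them all, the same animal that was the lowest 2-year control on both PDGFB probe sets. At 5 months the controls ranged from 5.57 to 7.89 (median 6.58) and the FASD animals read 6.48, 6.73, 6.26, 6.38 and 7.01, inside the control range. The difference was −1.17 at 2 years (SE 0.36, unadjusted p under 0.05, adjusted p = 0.793) and −0.05 at 5 months (SE 0.36), and −0.61 averaged over ages (SE 0.25, unadjusted p under 0.05, adjusted p = 0.579). The change of the difference with age was −1.12 (SE 0.51, unadjusted p under 0.05, adjusted p = 1.00), and it left the unadjusted threshold in 11 of the 22 omissions of a single animal. Over the 22 omissions of a single animal the 2-year difference ranged from −1.48 to −0.997. Its unadjusted limma p stayed under 0.05, and its adjusted p ranged from 0.0940 to 0.999. The −1.48 and the adjusted p of 0.0940 came without control 2-year animal 2. Omitting that animal also raised the counts of members that passed unadjusted, from 3 to 7 for alcohol and from 4 to 8 for age.

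SPRY2, an inhibitor of receptor tyrosine kinase signalling, differed by −0.14 for alcohol on probe set MmugDNA.7749.1.S1_at (SE 0.05, unadjusted p under 0.05, adjusted p = 0.579) and by −0.02 on its other probe set (adjusted p = 0.919). SDC2, a heparan sulfate co-receptor, differed by −0.25 (SE 0.09, unadjusted p under 0.05, adjusted p = 0.579). EGR2, an immediate-early transcription factor, differed by −0.43 (SE 0.21, unadjusted p under 0.05, adjusted p = 0.591), with 5-month FASD animals at 7.33, 7.14, 5.89, 6.03 and 6.53 against 6.79 to 7.81 in controls. Its averaged difference had an unadjusted p above 0.05 in a two-way analysis of variance (adjusted p = 0.636) and after median centring (adjusted p = 0.612), and in 14 of the 22 omissions of a single animal. KLB and MAP2K5 were the 2 that passed and were higher in FASD. With 1 animal left out their values ranged from 0.09 to 0.14 and from 0.10 to 0.14. They left the threshold in 16 and 10 of the 22 omissions. KLB read only 3.86 to 4.34 over all animals, against a median level of 8.006 for all probe sets. PTPN11 and SHC3 passed and were lower, ranging from −0.16 to −0.10 and from −0.11 to −0.07. They left it in 1 and 6 omissions.

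MAP2K1, which encodes the ERK kinase MEK1, was higher at 2 years by 0.30 (SE 0.07, unadjusted p under 0.05, adjusted p = 0.0931). FASD animals read 10.21, 10.82, 10.66, 10.61 and 10.80 at 5 months and 11.03, 11.03, 11.11, 10.88 and 11.12 at 2 years, with no overlap, while the controls overlapped. Of all probe sets, 1.31% had no overlap between the ages in FASD and 0.434% in controls. RRAS2, a RAS-related GTPase, differed by −0.37 (SE 0.10, unadjusted p under 0.05, adjusted p = 0.183). Of the 21 probe sets of feedback inhibitors and response genes, 15 were lower and 6 higher at 2 years (median −0.03), against 48.5% of all probe sets lower. The 5 that passed unadjusted were among the lower. In controls 17 were lower (median −0.17) and 4 passed, where 54.9% of all probe sets were lower and 5.55% passed. In FASD 8 were lower and 13 higher (median 0.08) and 1 passed, where 44.5% of all were lower and 6.99% passed. The whole table thus also leaned lower in controls and higher in FASD. For the difference between the exposures 1 of the 21 passed unadjusted and 0 after adjustment, against 3% of all probe sets unadjusted. The 5 include ARC, a neuronal immediate-early gene, at −0.41 (SE 0.12, unadjusted p under 0.05, adjusted p = 0.222), and DUSP1, an immediate-early phosphatase that switches off MAP kinases, at −0.55 (SE 0.16, unadjusted p under 0.05, adjusted p = 0.230). For DUSP1 the difference was −0.87 in controls (unadjusted p under 0.05, adjusted p = 0.275) and −0.22 in FASD (unadjusted p above 0.05, adjusted p = 0.871), which were not shown to differ from each other (unadjusted p above 0.05, adjusted p = 1.00).

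**Figure D5:**
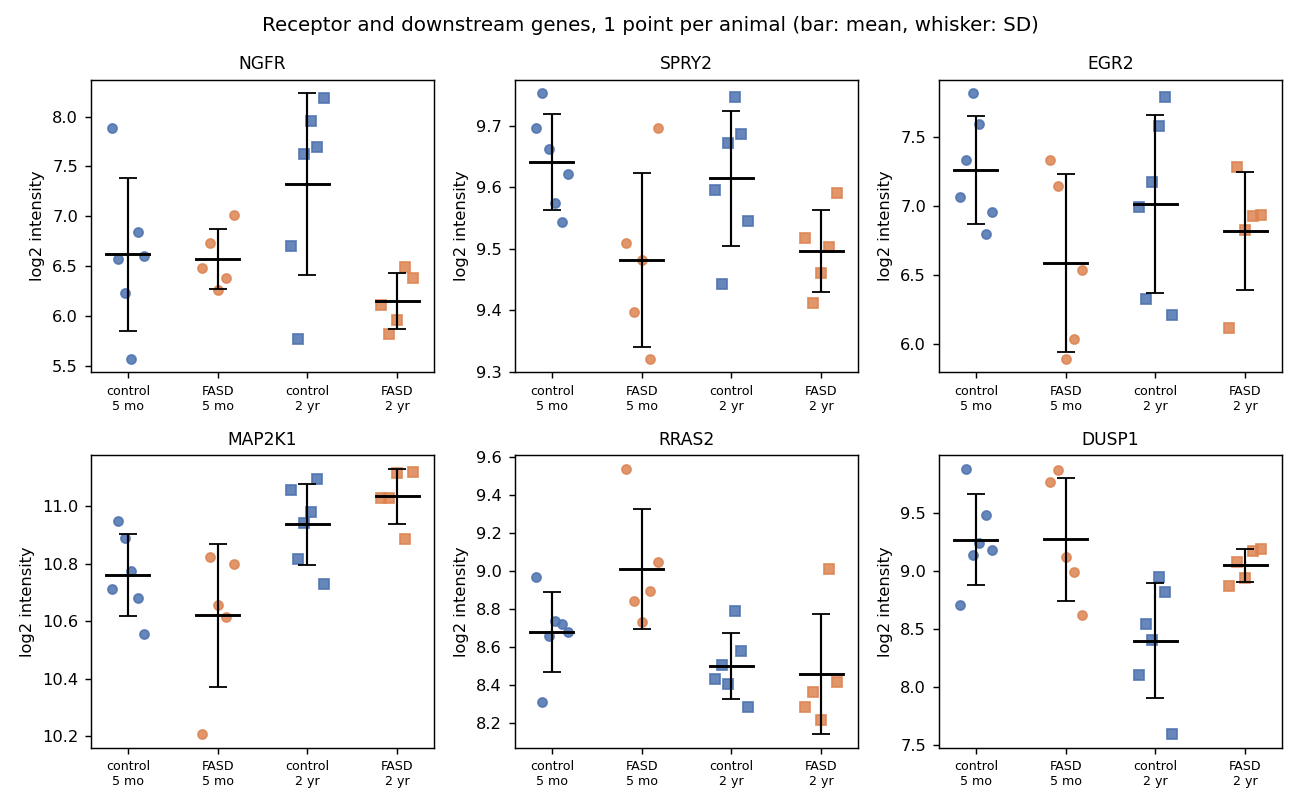
Log2 intensity of NGFR, SPRY2, EGR2, MAP2K1, RRAS2 and DUSP1, with 1 point per animal, bars at the group mean and whiskers of 1 SD, for control (blue) and FASD (orange) animals at 5 months (circles) and 2 years (squares). For NGFR the 2-year controls spread from 5.77 to 8.18 while the 2-year FASD animals stay at 6.49 or below.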

How the data were processed

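Total RNA of the left hippocampus of 22 male vervets was measured on Affymetrix GeneChip Rhesus Macaque arrays, and the values deposited by the authors are log2 intensities after robust multi-array average (RMA) normalization. Per the study's methods, the authors kept annotated probe sets detected in at least 6 arrays and 1 probe set per gene, and hybridised all arrays on the same day. Of 24 deposited columns 2, the discarded FASD arrays, hold no values. Samples were grouped by title; control 5-month animal 6 was kept at 5 months although its source label names 2 years, because 3 other labels give 5 months. Symbols came from GEO's platform annotation, under which 3 members had 2 probe sets, and no sequence table was used here.

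A group-means model over 4 groups and 11512 probe sets was fitted with limma 3.58.1 in R 4.3.3 (lmFit, eBayes), two-sided, with Benjamini-Hochberg adjustment over all rows and a threshold of 0.05; the same steps were tested on simulated data. Contrasts were alcohol, age, their interaction and each factor within each level of the other. Exact permutation tests, two-sided, exchanged animals within ages or exposures for 13 within-group and 7 averaged values, not adjusted. These were the member values with an unadjusted limma p under 0.05. The permutation p-values thus come from values picked on the same animals and are not separate evidence. The contrasts share animals. Nothing gives separate batches. The p-values set each difference against the spread between these animals, which are taken as independent. Any dam shared between animals was not modelled. The number of arrays limits the precision. Members and lists, and the genes named (every member with an unadjusted p under 0.05, the lowest p of each family, and a set of main ligands and receptors), were chosen with earlier results of these data known. The pathway genes named were drawn from the 2 of lowest p in each list for alcohol and for age, and passed the same threshold for 1 of these. Not every pathway gene that passed is named. Alternatives were a two-way analysis of variance, trend and robust variances, array weights, median centring, quantile normalization, 1 row per symbol, rows at or above the median level, a replicate block, each animal left out, and 2 chosen after seeing the data (without the 3 arrays of lowest weight, and without the 2 of highest choroid plexus marker mean). Python 3.11.15, pandas 2.3.3 and matplotlib 3.10.9 drew the tables and figures.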

Additional observations from a re-analysis of the deposited data

Results flagged for a closer look

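Among the named members only, the value of 1 animal lay far from the rest of its group in 11 of 104 sets of 1 probe set and 1 group (10.6%). Normally distributed values would give about 1 in 20 in independent sets, but these sets share the same animals. The share over all probe sets was not counted, so no excess is shown. FASD 2-year animal 2 was such a value in 3 of the 11: IGF1 at 7.814 against 8.082 for the nearest animal, FGFRL1 at 7.847 against 7.587 and MET at 5.176 against 6.633. FASD 5-month animal 2 was low for IRS2 at 10.398 against 11.212 for the nearest animal, and for NTRK3 at 8.349 against 8.931; it also had the lowest array weight (0.273). Control 2-year animal 2 was low for the second PDGFB probe set at 6.222 against 6.977, and high for GFRA4 at 7.241 against 6.98. Control 5-month animal 6, the animal of highest choroid plexus marker mean, was high for ERBB2 at 7.253 against 6.72. The others were GFRA4 in FASD 5-month animal 5, high at 7.12 against 6.936, PDGFC on MmugDNA.39168.1.S1_at in control 2-year animal 4, high at 7.414 against 7.263, and ERBB3 in control 2-year animal 5, low at 7.051 against 7.807.

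For NGFR the alcohol difference passed the unadjusted test of a change between the ages, but not after adjustment: the difference at 2 years minus that at 5 months was −1.12 (SE 0.51, unadjusted limma p under 0.05, adjusted p = 1.00). The value ranged from −1.43 to −0.91 with 1 animal left out, and in a two-way analysis of variance its unadjusted p was above 0.05, as it was in 11 of the 22 omissions.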

How the results depend on the processing

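The counts of members at an unadjusted p under 0.05 were 3 for alcohol, 4 for age, 0 for their interaction, 1 and 3 for alcohol at 5 months and at 2 years, and 4 and 5 for age in controls and in FASD. With array weights they were 7 for alcohol, 8 for age, 2 for the interaction, 5 and 5 for alcohol at 5 months and 2 years, and 7 for age in controls. Shares of all probe sets under this and the other alternatives were not counted. A rise or fall of these counts therefore cannot be told apart from one of the whole table. Centring each array on its median gave 3 for age in FASD. Among the 5756 rows at or above the median level of 8.006, which keep 13 of the members, the counts were 0 for alcohol, age, alcohol at each age and age in controls, and 1 for age in FASD, since the members named for alcohol and age averaged below that level. Without the 2 arrays of highest choroid plexus marker mean there were 7 for age and 2 for the interaction, and without the 3 arrays of lowest weight 7 for alcohol, 4 for the interaction, 3 and 7 for alcohol at 5 months and 2 years, and 9 for age in controls; the cause was not tested. With 1 animal left out the ranges were 3 to 7 for alcohol, 4 to 8 for age, 0 to 2 for the interaction, 1 to 2 and 1 to 5 for alcohol at 5 months and 2 years, 3 to 8 for age in controls, 2 to 6 for age in FASD and 0 to 1 for age after adjustment. After adjustment the counts for alcohol and the interaction were 0 in every omission. The counts of 7 for alcohol and 8 for age came without control 2-year animal 2, a count of 8 for age also without FASD 5-month animal 2, 7 for age without control 5-month animal 6, 1 for alcohol at 2 years without FASD 2-year animal 4, and 2 for age in FASD without FASD 2-year or 5-month animal 2. Of pathway probe sets, 14 passed for alcohol and 19 for age with array weights, against 8 and 12, 5 for alcohol with median centring, and 5 and 7 among rows at or above the median level.

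Of the 7 members named for alcohol or age averaged over the other factor, BDNF left the threshold in 1 alternative that kept it, without the 2 arrays of highest choroid plexus marker mean. None of the values of members and named pathway genes that passed in the main analysis changed sign. Of these values and the pathway counts over all alternatives, 206 were weaker, 125 stronger and 5905 neither. For a value this means that it lost or gained the threshold, and for a count that it fell or rose markedly. The total includes members that did not pass in the main analysis. A value that passed in neither setting is counted under neither, even where its sign changed, so 5905 is no measure of stability. The deviations of animals with the same number in different groups had a mean r of 0.0706 over 30 pairs (from −0.33 to 0.389). Pairs of different numbers had a mean r of −0.0107 over 151 pairs (from −0.507 to 0.434). The lowest array weights were those of FASD 5-month animal 2 (0.273), control 2-year animal 2 (0.379) and FASD 2-year animal 2 (0.413). Control 5-month animal 2 had a weight of 2.003. Because the ranges of r overlap, these values do not settle whether the numbers pair animals. With a replicate block the counts were 4, 6 and 0 for alcohol, age and the interaction, 1 and 4 for alcohol at 5 months and 2 years, and 5 and 4 for age in controls and FASD.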
